A study of Mus musculus with 53 samples.

Results

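The 33 genes described here are markers of microglia, the resident macrophages of the brain, and of myeloid cells more widely. They were taken by name from a list, and all 33 were found among the 54393 gene identifiers that the CeA and mPFC count tables share. RNA of whole tissue was counted by sequencing biased to the 3' end in 53 libraries of C57BL6/J mice at postnatal day 119, 19 from the central nucleus of the amygdala (CeA) and 34 from the medial prefrontal cortex (mPFC). One of the study's factors was the chow, either control or with PLX5622 at 1200 mg/kg, given for 28 days ahead of an ethanol phase. The other was the history, labelled non-dependent or dependent. For dependence, the protocol describes choice drinking of 15% ethanol combined with chronic intermittent exposure over 4 weeks and sampling 24 hours after the last exposure. What the non-dependent mice received is not stated, and the protocol text is the same for every sample. CeA groups on control chow held 6 non-dependent and 5 dependent mice, and those on PLX5622 chow 4 of each history. In mPFC the control non-dependent group held 7 mice and each of the other groups held 9. No group carried a transgene or a deletion according to the labels.

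PLX5622 inhibits CSF1R, a receptor tyrosine kinase that binds CSF1 and IL-34 and on which adult microglia depend for survival. The identity of microglia is set by transcription factors such as PU.1 (Spi1), IRF8, RUNX1 and SALL1. Their surface carries lectins, integrins and the sensing receptors by which they survey tissue and recognise debris, and their lysosomes degrade what they engulf. Several of the genes below are shared with macrophages elsewhere, and some are also active in astrocytes, endothelial cells or neurons. In whole tissue, fewer cells of a type and less RNA per cell cannot be told apart.

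RefSeq promoter windows of GRCm38.p6, from 250 bases before to 50 bases after an annotated start, matched 25 of the 33 genes. They are shown because the gene of PU.1 is among the 33, and a part of PU.1 in the results below was not tested. The letters GAGGAAGT, the core bound by PU.1, were searched on both strands and lay in the windows of 3 of the 25 genes, against 3.69% of 27025 genes with a window. The windows are printed 5′ to 3′ on the strand of the match, with those letters in capitals.
Cd53, chr3:106790125-106790154, plus strand: gcgagaagagtGAGGAAGTgagactgagtg
Hpgds, chr6:65144761-65144790, minus strand: gcttttaggtgGAGGAAGTggcctctggct
Slco2b1, chr7:99711316-99711345, minus strand: agtccatgaggGAGGAAGTgactcatcttc
The match began 6 bases after the start in Cd53 and Slco2b1, and 49 bases before it in Hpgds, and the gene lies on the minus strand in each case. Another 5 strings, some contained in the first, were searched in the same way. AGGAAGT was found in 5 of the 25 genes against 10.7% of all genes, GAGGAAG in 7 against 15.4%, and GGAAGT in 10 against 26.5%. TGTGGT, the core bound by RUNX factors, was found in 10 against 18.9%, and the E-box CAGCTG in 5 against 18.3%. These are counts of letters, not of sites bound.

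Counts in genes per library ran from 1062443 to 1968971 in CeA and from 1531574 to 2607438 in mPFC, and levels are given as counts scaled to a library total of 1000000 (CPM). Csf1r, the gene of the drug target, lay between 31.8 and 59.9 CPM in the control libraries and between 0 and 4.73 CPM with PLX5622, so every library matched its diet label. Mouse number 16 is labelled control in CeA and PLX5622 in mPFC. Its Csf1r value was 53.7 CPM in CeA and 0.527 CPM in mPFC, each within the range of the labelled group. The 12 libraries that hold spike-in RNA, 3 in each dependent group of each region, are left out where stated. Irf8, an interferon regulatory factor that drives macrophage development, and Itgam, which encodes the integrin alpha chain CD11b, had 0 counts in all 53 libraries, controls included. With 3 counts as the limit, the pooled level of each was under 0.357 CPM in CeA and 0.211 CPM in mPFC for control non-dependent mice. This limit holds for reads counted to the gene, and whether the annotation or the counting could assign reads to it was not tested. Itgam shares 3450 exon bases with another gene on the same strand, Gm49368, which itself had 2 counts. Irf8 and Itgam therefore give no comparison, and 31 genes remain.

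With PLX5622 most of the tested marker genes fell in both regions and under both histories, and none was called higher. The mean over the 33 genes of log2(CPM + 1) was 3.33 ± 0.13 (SD, n = 6) in control non-dependent CeA and 1.58 ± 0.14 (n = 4) with PLX5622. In dependent CeA it was 3.40 ± 0.10 (n = 5) against 1.52 ± 0.12 (n = 4). The 8 CeA libraries with PLX5622 lay between 1.36 and 1.71, under the lowest CeA control at 3.14. In mPFC the mean was 3.20 ± 0.08 (n = 7) against 1.48 ± 0.10 (n = 9) in non-dependent mice, and 3.27 ± 0.07 (n = 9) against 1.51 ± 0.21 (n = 9) in dependent mice. The highest PLX5622 library of mPFC, from dependent mouse 30, reached 1.96, and the lowest control library stood at 3.10.

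**Figure D1:**
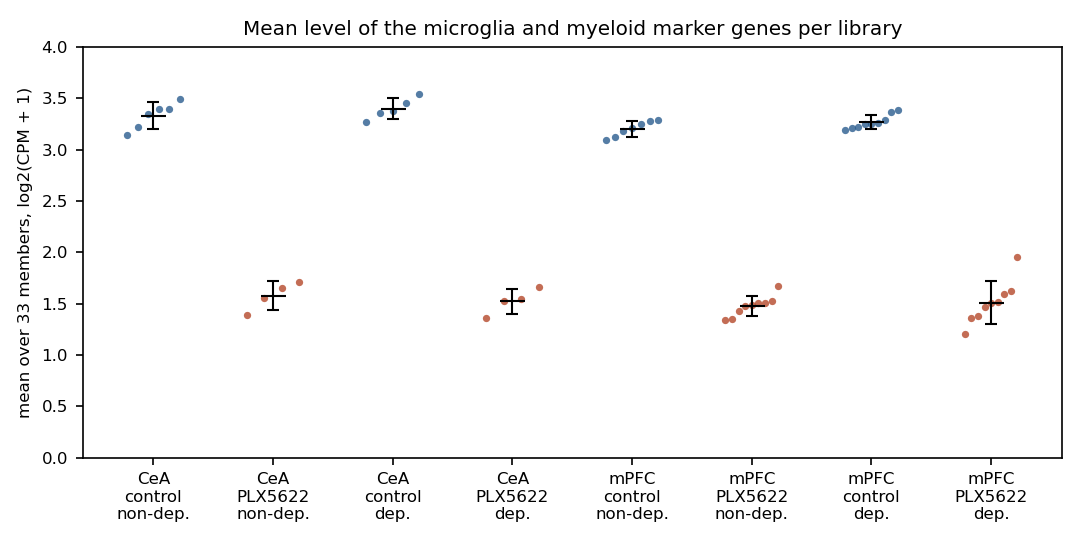
Mean over the 33 genes of log2(CPM + 1) in each of the 53 libraries (points, control blue and PLX5622 red), with group mean and SD (black). Every PLX5622 library lies under 2 and every control library over 3, with the dependent mPFC mouse 30 highest among the treated at 1.96.

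The test of each gene was edgeR's quasi-likelihood test over all genes, with a call where the p, adjusted after Benjamini and Hochberg, was under 0.05. In non-dependent CeA, 16 of the 23 members that passed the filter on low counts were lower with PLX5622, where 0.486% of all genes tested were lower. In dependent CeA 16 of 23 were lower, against 0.401% of all genes. In non-dependent mPFC 21 of 24 were lower, against 0.616%, and in dependent mPFC 21 of 24, against 0.868%. The median log2 fold change of the tested members was -1.95 and -2.23 in CeA and -3.04 and -3.20 in mPFC, in the order non-dependent and dependent, with genes of 3 or fewer counts in the PLX5622 group taken at their pooled ratio. Over all genes tested the medians were -0.0056, 0.0011, 0.0025 and 0.0054 in the same order. Counted by library instead, every PLX5622 library lay below every control library for 16 of 23 members in non-dependent CeA, where 1.59% of all genes tested separated in this way. The count was 18 of 23 in dependent CeA (1.47% of genes), 20 of 24 in non-dependent mPFC (0.527%) and 18 of 24 in dependent mPFC (0.438%). A gene can pass the filter through its control libraries alone, so these counts describe the tested members and not the whole list. Without the libraries that hold spike-in RNA, the PLX5622 group of dependent CeA kept 1 library, assumed to vary like the others, and 8 members were called. Members called with all libraries that lost the call there kept log2 fold changes below 0, among them Unc93b1 at -2.04, Abca9 at -1.67, Lpcat2 at -1.53 and Itgb5 at -0.94. The sign turned for Mertk, Cd68, Sparc and Golm1, none of them called in either fit.

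Among the transcription factors, Ikzf1, which encodes the zinc finger protein Ikaros of the blood lineages, fell furthest of those tested. Its levels in CeA with PLX5622 were 0.722, 0, 1.94 and 0.655 CPM in non-dependent mice and 1.87, 0, 0 and 0 CPM in dependent mice. The controls of these groups had at least 6.84 and 7.12 CPM, so the groups did not overlap. In mPFC Ikzf1 fell from 9.64 ± 2.20 CPM (n = 7) to 0.568 ± 0.496 (n = 9) in non-dependent mice, a log2 fold change of -3.87 ± 0.36 (SE, edgeR adjusted p = 1.39e-12). In dependent mPFC the change was -3.78 ± 0.35 (edgeR adjusted p = 1.23e-12). Runx1, a Runt-domain factor of blood and microglial development, fell to between 7.48% and 15.0% of the pooled control level in the 4 comparisons, with edgeR adjusted p from 5.45e-10 to 0.00445. Spi1, which encodes PU.1, was too low for the filter in both regions. Its counts were 24 in the 6 control and 0 in the 4 PLX5622 libraries of non-dependent CeA, at least 5.71-fold lower when the group is set at 3 counts. In dependent CeA 2 counts remained, 13.8% of control with a counting interval of 1.57% to 56.6%. In mPFC Spi1 fell to 4.01% (0.469% to 15.5%) and 5.35% (1.07% to 16.5%) of control, and with no filter on low counts the edgeR adjusted p was 2.41e-08 and 1.64e-09. The DESeq2 adjusted p of Spi1 in mPFC were 5.45e-06 and 7.26e-06. One PLX5622 library of non-dependent mPFC reached the lowest Spi1 control, and the other comparisons of Spi1 had no overlap.

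Sall1, a zinc finger repressor that within the myeloid lineage marks microglia, did not pass the test in any comparison and stood at 39.3% to 79.0% of control. In CeA it read 4.33, 1.95, 1.29 and 3.27 CPM in PLX5622 non-dependent mice, against a control range of 2.87 to 9.88 CPM with a median of 7.02. Dependent CeA mice on PLX5622 read 3.74, 3.76, 5.81 and 3.55 CPM, and the controls 11.6, 9.69, 7.12, 10.2 and 7.62 CPM. The dependent groups did not overlap, while the non-dependent groups did. The log2 fold changes were -1.29 ± 0.38 (edgeR adjusted p = 0.11) and -1.11 ± 0.34 (adjusted p = 0.344). Without control non-dependent mouse 20 the non-dependent CeA change of Sall1 was called. In mPFC the PLX5622 libraries were spread from 0.653 to 13.0 CPM (median 4.07) in non-dependent mice and from 1.98 to 13.4 CPM (median 7.57) in dependent mice. The controls ran from 4.86 to 14.7 and from 5.35 to 12.1 CPM, so the mPFC groups overlapped. The changes there were -0.61 ± 0.37 and -0.34 ± 0.32, with edgeR adjusted p of 1.00 and 0.969. The library with the highest Sall1 among the treated, dependent mPFC mouse 38 at 13.4 CPM, also had the highest mean of the amygdala and striatum markers among PLX5622 mPFC libraries, 5.83 on the log2(CPM + 1) scale against a group mean of 4.58. Non-dependent mouse 45, at 13.0 CPM, had 4.11 on that scale. The part of tissue content in the spread of Sall1 was not tested.

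The surface receptors and markers included some of the deepest falls. In CeA 6 of 7 tested were called under either history, and in mPFC 8 of 9, Mertk being the exception in each. Tmem119, a transmembrane protein used to tell microglia from other macrophages, lies at chr5:113793729-113800516 on the minus strand (GRCm38). It read 0.722, 0.648, 0 and 0 CPM in non-dependent CeA with PLX5622, where the controls ran from 15.8 to 36.4 CPM. In dependent CeA it read 0, 0.941, 0.830 and 0.710 CPM with PLX5622, against 21.7, 25.6, 13.5, 27.4 and 26.4 CPM in controls. The pooled ratio was 1.37% of control (counting interval 0.165% to 5.03%) and 2.44% (0.498% to 7.23%), with edgeR adjusted p of 7.15e-11 and 9.26e-10. In mPFC the PLX5622 libraries ran from 0 to 2.85 CPM (median 1.96) and from 0 to 4.26 CPM (median 1.19). The lowest controls of mPFC stood at 11.3 and 14.3 CPM, so no groups overlapped there either. The residual in mPFC was 10.2% (6.80% to 14.7%) and 7.61% (4.90% to 11.4%), with log2 fold changes of -3.26 ± 0.24 and -3.66 ± 0.23.

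Siglech, a sialic acid-binding lectin of microglia and plasmacytoid dendritic cells, had 1 count in the PLX5622 libraries of non-dependent CeA, where each control library had at least 10.6 CPM. That is 1.26% of control (0.0317% to 7.18%), and its residual in the other comparisons ran up to 4.06%. Cd33, a lectin of the same family, had no read in any of the 8 CeA libraries with PLX5622, against 40 and 38 control counts. The CeA levels were at least 9.52-fold and 8.72-fold lower, taking 3 counts over each group. In mPFC Cd33 kept 1.01% (0.0254% to 5.82%) and 2.31% (0.470% to 6.91%). Fcrls, an Fc receptor-like scavenger receptor of mouse microglia, kept 2.46% to 5.96% over the 4 comparisons. Selplg, the ligand of P-selectin, kept 2.29% to 6.64%, and Cd53, a leukocyte tetraspanin, 3.93% to 8.76%. For these receptors the PLX5622 and control libraries did not overlap in any of the 4 comparisons.

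Adgre1, the adhesion receptor known as F4/80, had 30 control counts and 0 with PLX5622 in dependent CeA, at least 6.88-fold lower. In non-dependent CeA 1 count remained, 4.25% of control (0.104% to 25.4%). In mPFC it kept 7.53% and 7.13% of control, with edgeR adjusted p of 3.56e-10 and 2.89e-11. Ly86, which encodes the MD-1 protein that pairs with the Toll-like receptor relative RP105, kept 7.78% and 8.87% in CeA and 5.87% and 10.8% in mPFC. Cd14, the co-receptor for lipopolysaccharide, was rare: no group averaged over 2.11 CPM. In dependent mPFC its counts fell from 39 to 5, 12.3% of control (3.80% to 31.3%), with an edgeR adjusted p of 0.000113 under no filter and a DESeq2 adjusted p of 0.00578. In the other comparisons Cd14 did not pass the test under no filter.

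Mertk, a receptor tyrosine kinase that recognises apoptotic cells through bridging proteins, stood at the other end. In non-dependent CeA it read 80.8, 83.6, 78.7 and 84.5 CPM with PLX5622 and 78.3 to 100.4 CPM (median 91.8) in controls. Dependent CeA mice read 67.9, 62.1, 87.9 and 98.6 CPM with PLX5622 against 93.2, 83.8, 80.5, 94.9 and 91.9 CPM in controls. In mPFC the treated libraries spanned 71.2 to 102.2 CPM and 63.8 to 107.3 CPM, and controls 86.9 to 101.9 and 70.0 to 105.8 CPM. The groups overlapped in every comparison. The pooled ratio lay between 89.2% and 93.6%, and the log2 fold change between -0.15 ± 0.11 and -0.10 ± 0.09 with edgeR adjusted p of 0.785 or more. Mertk is also active in astrocytes, whose marker genes were averaged on the log2(CPM + 1) scale. In CeA that mean was 6.82 in controls and 6.76 with PLX5622 in non-dependent mice, and 6.75 and 6.85 in dependent mice. In mPFC it was 6.76 in controls and 6.89 with PLX5622 in non-dependent mice, and 6.78 and 6.88 in dependent mice. The part of astrocytes in the level of Mertk was not tested.

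**Figure D2:**
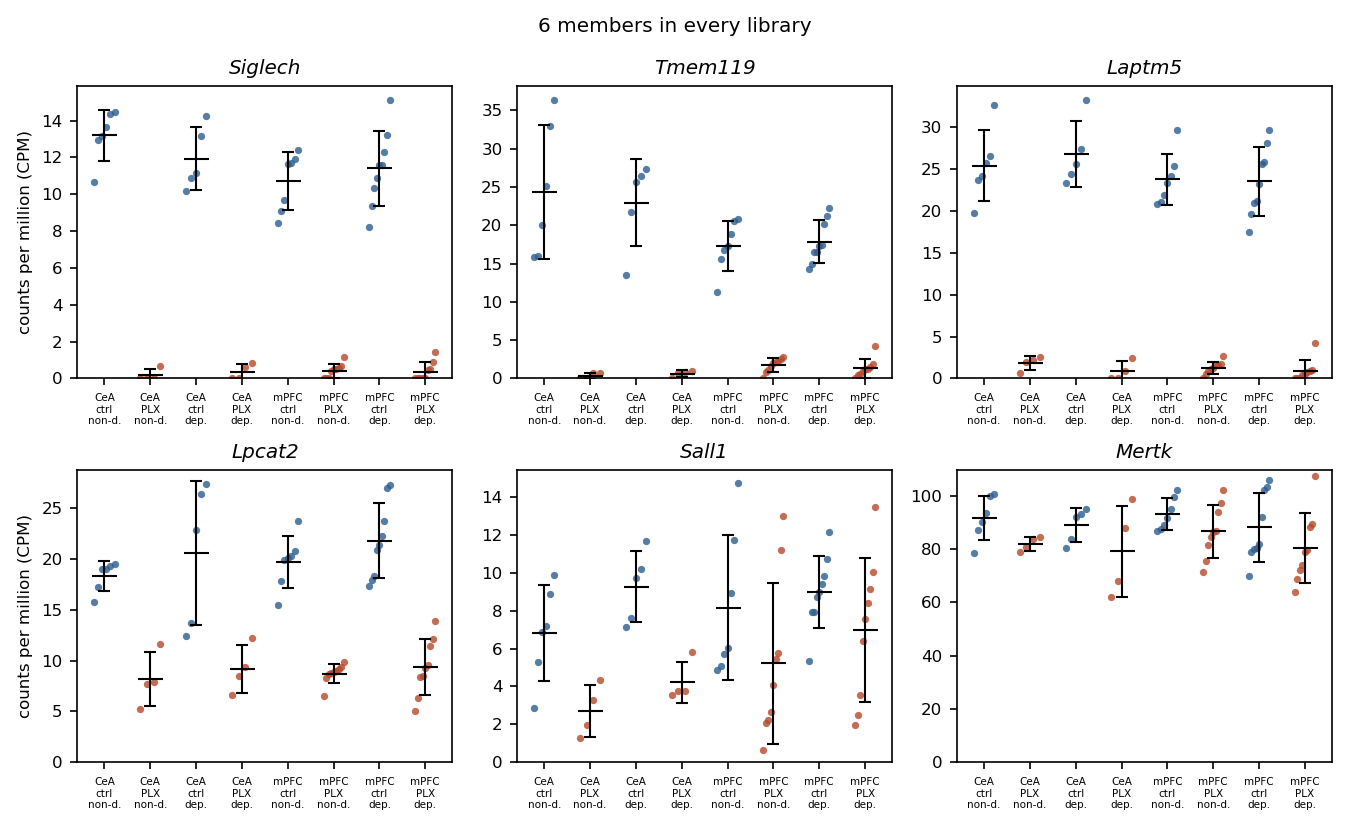
CPM of 6 members in each library (points, control blue and PLX5622 red) with group mean and SD (black), each axis starting at 0. Siglech, Tmem119 and Laptm5 separate the diets fully, and Lpcat2 stays at 42.6% to 44.7% of control. Sall1 overlaps in mPFC and in non-dependent CeA, and Mertk overlaps in each comparison.

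Of the integrins, Itgb2, the beta chain CD18 of the leukocyte integrins, was too low for the filter. Every PLX5622 library lay below every control library in each comparison, and the pooled ratio ran from 10.9% to 24.2%. With no filter its edgeR adjusted p was 1.84e-05 and 2.62e-05 in mPFC but 0.0794 and 0.801 in CeA. DESeq2 gave Itgb2 adjusted p of 0.00185 and 0.00143 in mPFC and no call in CeA. Itgb5, a beta chain that pairs with the alpha V integrin and is found in several cell types, fell by a smaller amount. In CeA the treated libraries read 27.4, 31.8, 16.1 and 15.7 CPM in non-dependent mice and 17.4, 16.0, 9.96 and 19.9 CPM in dependent mice. The controls ran from 30.1 to 51.7 CPM and from 35.3 to 42.7 CPM, so 1 treated non-dependent library reached into the control range. The log2 fold change was -0.70 ± 0.18 (edgeR adjusted p = 0.0412) and -1.29 ± 0.20 (adjusted p = 5.16e-05). The non-dependent CeA call was lost with DESeq2 (adjusted p = 0.105), and also without control mouse 14, 15, 17 or 20 or PLX5622 mouse 46 or 47. In mPFC Itgb5 was at 50.8% and 51.8% of control, with log2 fold changes of -0.97 ± 0.12 and -0.95 ± 0.10 and no overlap between the diets.

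Among the transporters and lipid enzymes all 4 that passed the filter were called in every diet comparison, to different depths. Hpgds, the hematopoietic prostaglandin D synthase, kept 4.92% and 8.26% of control in CeA and 8.99% and 10.2% in mPFC. Slco2b1, an organic anion transporter, read 2.89, 5.19, 2.58 and 4.58 CPM in non-dependent and 4.98, 1.88, 4.15 and 1.42 CPM in dependent CeA with PLX5622, and all CeA controls had at least 9.88 CPM. In mPFC it kept 38.7% (30.0% to 49.6%) in non-dependent and 24.2% (18.6% to 31.2%) in dependent mice. Abca9, a lipid transporter of the ABC family, kept 22.7% to 40.0%, and its diet groups overlapped in mPFC but not in CeA. The non-dependent mPFC call of Abca9 was lost without control mouse 34. Lpcat2, which makes phosphatidylcholine and platelet-activating factor, kept a similar share in each comparison. Its pooled ratio was 44.6% and 44.7% in CeA and 43.9% and 42.6% in mPFC, the log2 fold change ran from -1.22 to -1.13, and no diet groups overlapped. The CeA calls of Lpcat2 and Abca9 depended on single libraries. Without non-dependent mouse 47 or dependent mouse 08 on PLX5622 both lost the call of that history, and Lpcat2 also lost its dependent call without control mouse 03 or 09 or PLX5622 mouse 06 or 29. Slc2a5, the fructose transporter GLUT5, was under the filter and kept 8.55% to 20.9%, with edgeR adjusted p of 2.42e-11 and 2.75e-06 in mPFC under no filter and of 0.0648 and 0.0947 in CeA. The DESeq2 adjusted p of Slc2a5 were larger, at 3.82e-06 and 0.000284 in mPFC and 0.353 and 0.676 in CeA.

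Of the lysosomal and endosomal proteins, Laptm5, a lysosomal membrane protein of blood cells, read 2.16, 2.59, 1.94 and 0.655 CPM in non-dependent and 2.49, 0.941, 0 and 0 CPM in dependent CeA with PLX5622. The controls ran from 19.8 to 32.6 CPM and from 23.3 to 33.2 CPM. In mPFC it fell from 23.8 ± 3.07 CPM to 1.25 ± 0.765 and from 23.5 ± 4.08 to 0.881 ± 1.33, log2 fold changes of -4.12 ± 0.25 and -4.63 ± 0.25. Mpeg1, the pore-forming perforin-2 of phagocytes, kept 3.30% to 6.77%. Unc93b1, which carries nucleic acid-sensing Toll-like receptors to the endosome, kept 22.5% to 27.5% and was called in every diet comparison, with log2 fold changes from -2.11 to -1.84. Cd68, a lysosomal glycoprotein often stained as a sign of phagocytic activity, differed from these. In CeA it read 5.77, 1.30, 4.52 and 5.89 CPM with PLX5622 in non-dependent mice, within the control range of 2.15 to 9.33 CPM apart from the lowest value. Dependent CeA mice read 5.60, 3.76, 2.49 and 5.68 CPM against 7.76, 4.15, 6.41, 6.37 and 11.2 CPM. Neither CeA change was called, at -0.41 ± 0.40 and -0.68 ± 0.40 with edgeR adjusted p of 0.838 and 0.964. In mPFC Cd68 was under the filter, at 23.3% (11.8% to 43.0%) and 38.9% (26.0% to 57.3%) of control, with edgeR adjusted p of 0.000203 and 0.000985 under no filter. The DESeq2 adjusted p of Cd68 there were 0.00197 and 0.00714.

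Of the 3 secreted, matrix and Golgi proteins tested, 0 were called in CeA and 2 in mPFC under both histories. Sparc, a collagen-binding matrix protein made by several glial and vascular cells, read 271, 254, 241 and 249 CPM in non-dependent CeA with PLX5622, below all controls (289 to 502 CPM). Dependent CeA mice read 235, 184, 237 and 373 CPM against 290.3, 425, 297, 352 and 454 CPM, and overlapped. Neither CeA change was called, at -0.46 ± 0.18 and -0.49 ± 0.19 with edgeR adjusted p of 0.423 and 0.778. With only the compared groups in the fit, the non-dependent CeA change of Sparc was called (edgeR adjusted p = 0.0483). In mPFC Sparc fell by 0.64 ± 0.12 and 0.58 ± 0.11 on the log2 scale, with edgeR adjusted p of 0.00223 and 0.0019. The non-dependent mPFC groups did not overlap, and in dependent mPFC mouse 38 on PLX5622, at 137.3 CPM, lay within the control range. Olfml3, a secreted olfactomedin-like protein found in microglia, kept 39.4% and 33.9% in CeA, without a call, and 26.3% and 24.8% in mPFC, with edgeR adjusted p of 2.15e-07 and 1.16e-08. Golm1, a Golgi membrane protein, was not called in any comparison, at 47.5% to 73.6% of control. In dependent mPFC its change was -0.61 ± 0.16 with an edgeR adjusted p of 0.0532. It was called there without control mouse 10 or 27, without PLX5622 mouse 08, 29 or 39, and with no filter, and in dependent CeA without PLX5622 mouse 29. Golm1 shares 1297 exon bases on the opposite strand with Naa35, which had 6220 counts, and the sources name no strand setting.

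Of the cytoskeleton and signalling proteins, Rgs10, a regulator of G-protein signalling, was at 57.8% and 61.0% of control in CeA and 54.1% and 60.5% in mPFC. It fell in mPFC by 0.88 ± 0.11 and 0.73 ± 0.10 on the log2 scale, with edgeR adjusted p of 7.56e-09 and 1.6e-07. In CeA the changes were -0.75 ± 0.22 and -0.70 ± 0.22 with adjusted p of 0.134 and 0.461, and with no filter these became 0.000259 and 0.0021. With only the compared groups in the fit, the non-dependent CeA change of Rgs10 was also called (edgeR adjusted p = 0.0227). Aif1, the calcium- and actin-binding protein IBA1, was under the filter: its control groups averaged 1.84 to 3.70 CPM and the PLX5622 groups 0.517 to 0.972 CPM. The residual of Aif1 was 32.3% (10.9% to 80.3%) and 20.8% (5.29% to 59.3%) in CeA, and 34.7% (16.0% to 70.9%) and 23.5% (10.5% to 47.7%) in mPFC. Under no filter Aif1 passed the test in dependent mPFC (edgeR adjusted p = 0.00448) and had adjusted p of 0.247 to 0.443 in the other comparisons. Its DESeq2 adjusted p in dependent mPFC was 0.0259. Bin2, a membrane-bending BAR-domain protein of leukocytes, had 44 control counts and 0 with PLX5622 in dependent CeA, at least 10.1-fold lower. In the other comparisons it kept 7.57% (non-dependent CeA), 21.0% and 6.42% (mPFC). The diet groups of Bin2 overlapped in mPFC but not in CeA. Under no filter its edgeR adjusted p was 0.000713 and 5.98e-07 in CeA and 0.0324 and 0.000111 in mPFC. The DESeq2 adjusted p of Bin2 were 0.123 and 0.00143 in CeA and 0.128 and 0.00104 in mPFC, so DESeq2 gave no call in non-dependent mice.

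**Figure D3:**
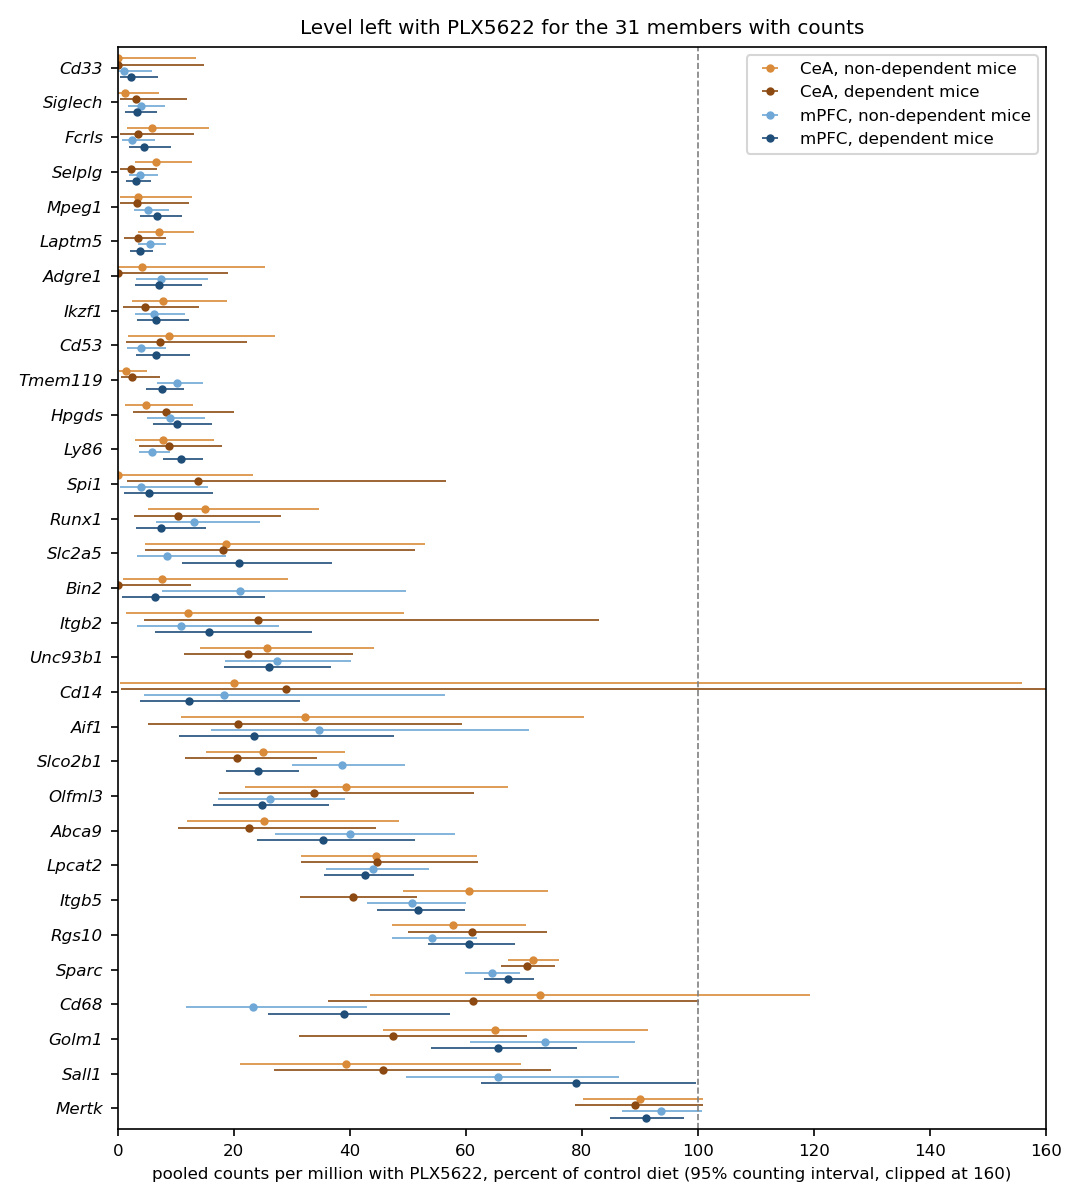
Pooled CPM with PLX5622 as a percent of control for the 31 members with counts in the 4 diet comparisons (points), with the exact 95% counting interval (lines, the axis ends at 160) and members ordered by their highest residual. Cd33, with 0 treated CeA counts, stands at the top and Mertk, at 89.2% to 93.6%, at the bottom.

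Ordered by the highest residual over the 4 comparisons, 13 of the 31 genes with counts stayed under 15% in each of them, from Cd33 to Spi1. Another 7 genes kept over 30% in each comparison, namely Lpcat2, Itgb5, Rgs10, Sparc, Golm1, Sall1 and Mertk, and 11 lay between. These limits were set after the values were seen. The counting intervals of Siglech and Fcrls overlapped in each comparison, as did those of Itgb5 and Rgs10. A list of 25 other core microglia genes, among them the purinergic receptor P2ry12, the fractalkine receptor Cx3cr1 and the protease Ctss, fell in the same comparisons: 21 and 20 of 22 tested in CeA, and 22 of 22 in mPFC under both histories. Ptprc was not called in CeA, nor Hpgd in dependent CeA, and Trem2 had 0 counts in every group. The median log2 fold changes of the tested genes of that core list were -3.07, -3.08, -3.70 and -3.35.

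Markers of other cell types stood as follows beside the diet effect. Of 12 border macrophage genes only F13a1 could be tested, in mPFC, and it fell by 2.54 ± 0.41 and 3.33 ± 0.39 on the log2 scale (edgeR adjusted p = 1.41e-05 and 1.54e-09). The summed level of the border macrophage list had a median of 22.1 and 17.1 CPM in the CeA controls, in the order non-dependent and dependent, and of 11.1 and 5.81 CPM with PLX5622. In mPFC these medians were 17.8 and 20.2 CPM in controls and 2.78 and 2.38 CPM with PLX5622. Their part in the fall of genes that macrophages share with microglia was not tested. The 14 monocyte, neutrophil and lymphocyte genes summed to at most 7.94 CPM in any library, with Ngp and Camp at 0 counts in all of them. Of the astrocyte, endothelial and mural, oligodendrocyte, precursor and neuron lists no gene was called in a diet comparison. The oligodendrocyte mean of log2(CPM + 1) in non-dependent CeA was 6.68 ± 0.16 in controls and 6.19 ± 0.50 with PLX5622. In dependent CeA it was 6.77 ± 0.33 and 6.44 ± 0.28. In mPFC it was 5.90 and 5.81 in non-dependent mice, and 6.03 and 5.91 in dependent mice. Choroid plexus and meningeal genes had a median log2 fold change of 0.70 and amygdala and striatum genes of -0.66 in non-dependent CeA, without a call. In non-dependent mPFC 1 of 10 tested amygdala and striatum genes, Prkcd, a protein kinase C of central amygdala neurons, was called lower with PLX5622, by 1.05 ± 0.26 on the log2 scale (edgeR adjusted p = 0.0269). Their part in the results was not tested.

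No difference of any of these genes between the dependent and non-dependent labels passed the test. On control chow 0 of 23 tested members were called in CeA and 0 of 24 in mPFC, where 0.00853% and 0.00811% of all genes were called. At an unadjusted p under 0.05 the counts were 0 and 1. DESeq2 also called 0 in both. In CeA 18 of the 23 changes were above 0 and 5 below, between -0.23 and 0.47 on the log2 scale. In mPFC 16 of 24 were above 0, between -0.29 and 0.33. The smallest p belonged to Sall1 in CeA, at 0.45 ± 0.27 with an edgeR adjusted p of 0.866, and to Itgb5 in mPFC, at 0.21 ± 0.10 with an adjusted p of 0.835. The mean over the 33 genes was higher in dependent mice by 0.0686 in CeA and 0.0644 in mPFC, less than the SD within groups of 0.119 and 0.0714, and the groups overlapped.

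**Figure D4:**
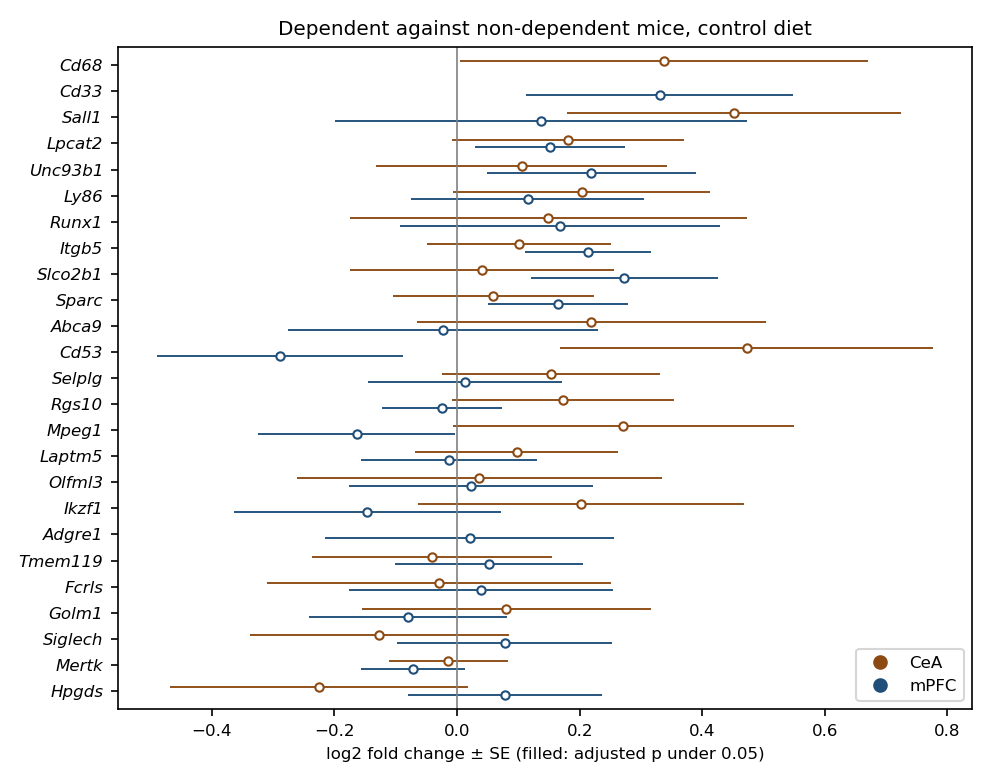
Log2 fold change of dependent against non-dependent mice on control chow for each tested member in CeA (brown) and mPFC (blue), with the standard error as lines and filled points for calls. No point is filled, and all values lie between -0.29 and 0.47.

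On PLX5622 chow 0 of 23 members in CeA and 0 of 24 in mPFC differed between the histories, where 0.0171% and 0% of all genes were called. At an unadjusted p under 0.05 there was 1 in CeA, Itgb5, at -0.49 ± 0.23 with an edgeR adjusted p of 0.808, and 0 in mPFC. DESeq2 called 0 in both regions. The interaction of diet and history was called for 0 of 23 and 0 of 24 members, and for 0% of all genes in CeA and 0% in mPFC. At an unadjusted p under 0.05 there was 1 member in each region. In CeA it was Itgb5, whose fall with PLX5622 differed between the histories by -0.59 ± 0.28 on the log2 scale (edgeR adjusted p = 0.993). In mPFC it was Slco2b1, with -0.65 ± 0.27 (edgeR adjusted p = 1.00). Its control levels there were 13.9 ± 2.68 CPM (n = 7) in non-dependent and 16.6 ± 1.90 (n = 9) in dependent mice, and its PLX5622 levels 5.24 ± 1.52 and 4.16 ± 2.21 (n = 9 each). DESeq2 called 0 interactions in either region.

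Between the regions the control libraries differed in some of these genes, as they did in many others. Of all genes tested, 46.4% were called in either direction in non-dependent mice and 46.6% in dependent mice. Region goes with the instrument, the way of dissection and the annotation release, and these cannot be told apart. In control non-dependent mice 8 of 27 members were lower in mPFC, against 23.2% of all genes, and 2 were higher, against 23.2%. In control dependent mice 6 were lower, against 23.2%, and 0 were higher, against 23.4%. In non-dependent mice Sparc was at 114.7 ± 8.39 CPM in mPFC (n = 7) and 357 ± 74.0 CPM in CeA (n = 6), a log2 difference of -1.67 ± 0.13. In dependent mice the difference was -1.57 ± 0.13, with edgeR adjusted p of 1.28e-14 and 2.46e-14. Bin2 was lower in mPFC by 1.28 ± 0.42 and 1.84 ± 0.39, Itgb5 by 0.59 ± 0.13 and 0.47 ± 0.12, and Selplg by 0.46 ± 0.18 and 0.60 ± 0.17 on the log2 scale. Tmem119 was lower by 0.52 ± 0.18 and 0.43 ± 0.18, with edgeR adjusted p of 0.0120 and 0.0384. Its dependent call was lost with DESeq2 (adjusted p = 0.0718), and without the spike-in libraries 3 members were called in dependent mice.

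Cd53 and Mpeg1 were higher in mPFC in non-dependent mice, by 0.72 ± 0.26 and 0.56 ± 0.22 on the log2 scale, and stood at -0.04 ± 0.25 and 0.13 ± 0.22 in dependent mice. The difference between histories was not tested for these. Hpgds, Cd68 and Unc93b1 were lower in non-dependent mice, and Rgs10 in dependent mice. The non-dependent calls of Mpeg1, Hpgds, Cd68 and Unc93b1 were lost with DESeq2. In non-dependent mice, with only libraries whose number occurs in both regions and that number fitted, Cd53 stood at 0.40 and Mpeg1 at 0.17. That fit called neither, nor Tmem119, Cd68 or Unc93b1 in non-dependent mice, nor Tmem119 or Rgs10 in dependent mice. The mean over the 33 genes was lower in mPFC by 0.127 and 0.131, and the regions overlapped. Beside this, choroid plexus and meningeal genes summed to medians of 1573 and 1150 CPM in CeA controls against 58.8 and 66.7 CPM in mPFC, and 11 of 12 oligodendrocyte genes were lower in mPFC under both histories. Their part in these differences was not tested.

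**Figure D5:**
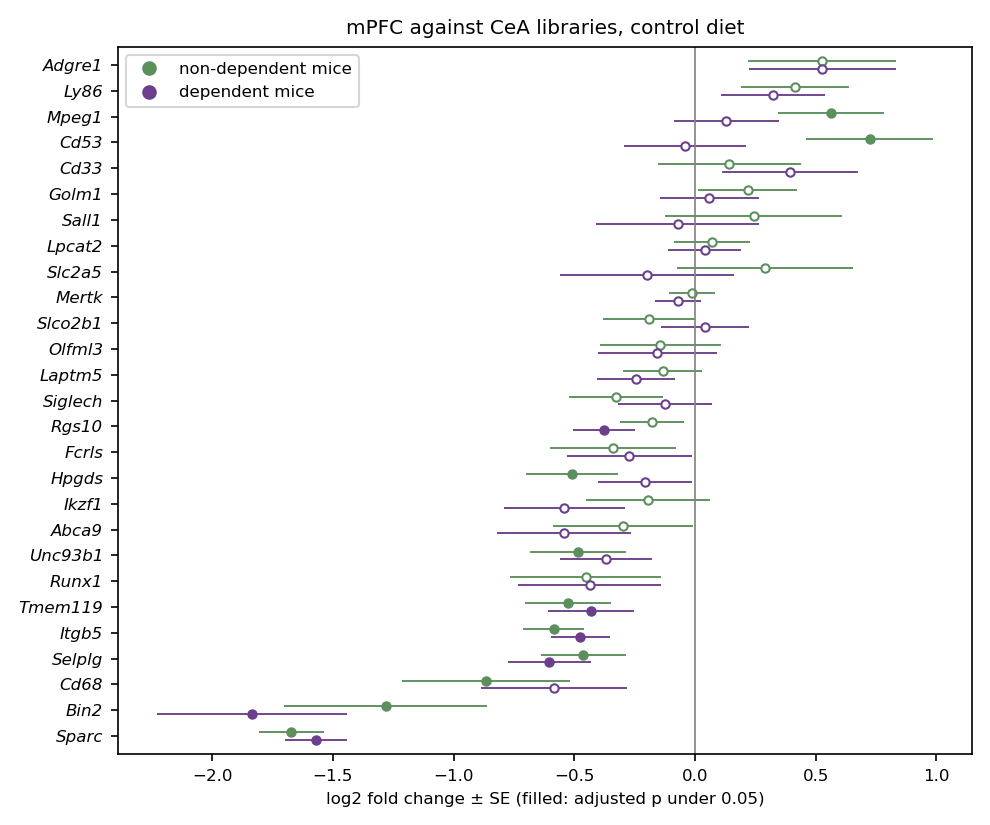
Log2 fold change of mPFC against CeA control libraries for the 27 members tested, in non-dependent (green) and dependent (purple) mice, with the standard error as lines and filled points for calls. Sparc and Bin2 lie farthest below 0, and Cd53 and Mpeg1 are the filled points above 0.

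The fall with PLX5622 was not called different between the regions for any member. For non-dependent mice 0 of 27 members showed an interaction of region and diet, where 0.046% of all genes did, and for dependent mice 0 of 27, where 0.00767% did. At an unadjusted p under 0.05 the counts were 2 and 0. Tmem119 had the smallest p: its interaction, mPFC minus CeA, was 2.64 ± 0.82 on the log2 scale in non-dependent mice (edgeR adjusted p = 0.344) and 1.53 ± 0.81 in dependent mice (adjusted p = 0.947). The CeA side of Tmem119 rests on 2 and 3 counts in all treated libraries. The interaction of Cd68 was -1.60 ± 0.61 in non-dependent mice, with an edgeR adjusted p of 0.483. DESeq2 called 0 members in dependent mice, and in non-dependent mice its filter left an adjusted p for Sparc alone among the members.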

How the data were processed

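Libraries of CeA and mPFC tissue were compared by chow and by history of dependence, with groups taken from the labels. The authors deposited raw counts per gene, made per the submitters' processing notes with Bowtie2 2.3.4.3 and HTSeq 0.11.0 on GRCm38.p6. The sources used here name no setting for strand or duplicate reads. Rows that name no gene held 24.5% to 27.7% of the reads and were left out. CPM, scaled to a total of 1000000 in genes, were computed from the deposited counts and averaged as log2(CPM + 1). Each region was fitted over its 4 groups, and both regions jointly for region, with edgeR 4.0.16 (R 4.3.3): TMM scaling, filterByExpr at a minimum count of 10 and a total of 15, the quasi-likelihood test, and Benjamini-Hochberg adjustment over all genes tested at 0.05. The SE is the log2 fold change divided by the root of F. Pooled ratios have exact 95% intervals, and these and the limit of 3 counts cover counting error only. Alternatives were DESeq2 1.42.0, other scaling, other filters, other library sets and each library left out in turn. The fit was tested on simulated data. No libraries of a group agreed within sampling noise, the lowest chi-square per gene being 1.12. The labels number the samples and do not say more on how mice were housed or pooled, and p-values measure the spread between these samples. All 33 genes are reported. The members and lists were chosen with earlier results of these data known.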

Additional observations from a re-analysis of the deposited data

Results flagged for a closer look

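A single library stood apart from the rest of its group by Dixon's test at the 95% level in 21 of the 188 groups of values tested (11.2%), where chance gives about 1 in 20 for normally spread values. That rate does not hold near 0 counts, where any read stands apart from libraries at 0, so the share cannot be set against it. For Siglech in CeA mouse 23, Ikzf1 in CeA mouse 06 and Cd33 in mPFC mouse 16, all other libraries of the group were at 0 CPM. In dependent mPFC with PLX5622, mouse 30 was the highest for Tmem119 (4.26 CPM), Laptm5 (4.26 CPM), Ikzf1 (2.84 CPM), Fcrls (2.36 CPM) and Cd33 (0.946 CPM). Mouse 38 of that group was the highest for Sparc at 137.3 CPM.

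In non-dependent mPFC with PLX5622 the highest values were Abca9 at 5.98 CPM and Cd53 at 2.18 CPM in mouse 21, Adgre1 at 1.15 CPM in mouse 13 and Cd33 at 0.527 CPM in mouse 16, and the lowest Lpcat2 value was 6.52 CPM in mouse 23. In dependent CeA with PLX5622 these were Golm1 at 11.4 CPM in mouse 29, Ikzf1 at 1.87 CPM in mouse 06 and Sall1 at 5.81 CPM in mouse 08. In non-dependent CeA with PLX5622 they were Rgs10 at 33.2 CPM in mouse 13 and Siglech at 0.648 CPM in mouse 23, the latter a single count. Among controls they were Sparc at 502.3 CPM in CeA mouse 15, Runx1 at 13.2 CPM in CeA mouse 02, Hpgds at 6.99 CPM (lowest) in CeA mouse 01, Cd53 at 12.3 CPM in mPFC mouse 28 and Abca9 at 11.9 CPM in mPFC mouse 34.

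Spike-in RNA, which enters no comparison here, had at least 11745 counts in 6 CeA libraries and at least 21989 in 6 mPFC libraries, all from dependent mice, and at most 316 and 69 counts in the others.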

How the results depend on the processing

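With a stricter filter the called members were 6 and 7 of 11 tested in CeA and 13 and 13 of 16 in mPFC. Without the spike-in libraries the counts were 8 for diet in dependent CeA and 3 for region in dependent mice. In dependent CeA that set leaves 2 control libraries and 1 with PLX5622, and the log2 fold change became 0.25 for Mertk, 0.094 for Cd68, 0.032 for Sparc and 0.048 for Golm1. It also became -0.14 for Cd68 between histories on control chow in CeA, and -0.085 for the region by diet interaction of Itgb5 in dependent mice. For region in non-dependent mice DESeq2 gave 6 members, and the replicate block 5 of 25 tested, where 31.6% of all genes were called. The same libraries without the block also gave 5, a comparison added after seeing the data. In dependent mice the block gave 5, where 37.6% of all genes were called, against 4 without it. The block changed no interaction call. CeA and mPFC libraries with the same labels share a number in 15 cases, and the labels do not say that the number is the animal. Their deviations from the group means correlated at -0.0345 to 0.0803 over 13035 genes, and 3 CeA and 2 mPFC libraries correlated best with their own number. With a pseudocount of 0.25 the diet difference of the member mean was -2.42, -2.58, -2.39 and -2.43, and without Irf8 and Itgam it was -1.997 in dependent CeA and -1.84 in non-dependent mPFC.

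Leaving out 1 library at a time, 14 to 17 and 15 to 18 members were called for diet in CeA and 20 to 22 and 21 to 22 in mPFC, 6 to 10 and 4 to 7 for region, and 0 to 0 for history and for interactions. The mean difference between diets ran from -1.80 to -1.69, -1.92 to -1.82, -1.75 to -1.71 and -1.81 to -1.72, that between regions from -0.166 to -0.0949 and from -0.164 to -0.0954. Between histories it ran from 0.0301 to 0.101 and 0.0463 to 0.0784 on control chow, and from -0.115 to 0.00134 and -0.0214 to 0.0724 on PLX5622. Over all genes the diet calls numbered 110 (75 to 239 over the alternatives), 47 (21 to 94), 77 (47 to 180), and in dependent mPFC they ran from 63 to 228. Members with few counts are limited by depth.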
